A study of Mus musculus with 27 samples.

Results

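Delta cells are the somatostatin cells of the pancreatic islet. The 3 delta-cell genes Sst, Hhex and Rbp4 were chosen by name, and all 3 were found as 1 row each in the count tables of embryonic pancreas (55536 genes), islets (26487 genes) and motor neuron progenitors (39017 genes). All 3 passed the filter on low counts in each comparison. The question was whether Rbp4 moves with Sst and Hhex or by itself in cells that carry a mutated SD domain of Nkx2.2, a transcription factor.

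Sst encodes somatostatin, the hormone by which delta cells restrain neighbouring beta and alpha cells. Hhex encodes a homeodomain factor that adult delta cells require to keep up somatostatin, and it also marks early endoderm and duct. Rbp4 encodes the retinol carrier of blood, made in large amounts by liver, yolk sac endoderm and fat, and within islets it is known as a delta-cell transcript. Nkx2.2 is a homeodomain factor needed for beta-cell identity, and it also patterns the ventral spinal cord.

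The study sequenced RNA from whole mouse pancreas at E15.5 (embryonic day), with 3 wildtype control libraries and 4 Nkx2.2SDmut libraries. Islet libraries came from 2 controls and 3 betaSDmut samples, whose SD mutation is specific to beta cells, at 8 weeks, and from 2 controls and 2 samples labelled betaKO at 4 weeks; the promoter that drives the beta-cell recombination is not given in the labels. Motor neuron progenitors were made from mouse embryonic stem cell lines and taken at day 4. The line iNkx2.2 carried FLAG-tagged wildtype Nkx2.2 under a doxycycline promoter and the line iSDmut the tagged SD mutant. There were 3 untreated iNkx2.2-line libraries (pMN), 3 iNkx2.2 libraries and 2 iSDmut libraries, the last 2 groups after 1 µg/ml doxycycline for about 16 h. Nkx2.2 binding was mapped in MIN6, a mouse beta-cell line, in 2 replicates. Each inducible transgene was represented by 1 line. The labels do not say that replicates are separate animals or cultures, so p-values measure the spread between these samples.

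Library totals ran from 38447596 to 41840638 counts in embryonic pancreas, 12398041 to 32385406 in islets and 17757991 to 46840701 in progenitors. Nkx2-2 itself was not called where its gene was mutated: its log2 fold change was -0.10 in E15.5 SDmut, -0.10 in betaSDmut and -0.18 in the libraries labelled betaKO, which therefore do not show the knockout at the level of total Nkx2-2 counts. It was higher than in pMN in both induced progenitor groups, by 5.25 in iNkx2.2 and 4.72 in iSDmut (edgeR adjusted p = 1.49e-05 and 4.01e-05). The molecule named for the 4-week samples is genomic DNA, but gene counts of the same form as in the other islet libraries were deposited for them. Beta-cell markers (7 genes) summed to 166734 to 241731 CPM (counts scaled to library size, with TMM factors) in islets. In embryonic SDmut pancreas the same sum was 54.8 to 107 CPM against 290 to 818 in controls.

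Hhex and Rbp4 lie on the same chromosome and Sst on another. In GRCm38, Sst (ENSMUSG00000004366.4) spans chr16:23889573-23890958 on the minus strand, Hhex (ENSMUSG00000024986.12) chr19:37434810-37440731 on the plus strand, and Rbp4 (ENSMUSG00000024990.13) chr19:38116629-38125281 on the minus strand. Rbp4 stands between Ffar4 (chr19:38097071-38114263, plus strand), which encodes a fatty acid receptor of delta cells, and Pde6c (chr19:38132781-38183958, plus strand), which encodes the phosphodiesterase of cone photoreceptors. The starts of Rbp4 and Pde6c are 7500 bp apart and point away from each other.

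The authors called 10749 Nkx2.2 binding events in MIN6 cells and kept 6473 as final sites. Within 100000 bp of the start lay 6 events at Rbp4, 3 at Hhex and 4 at Sst, of which 6, 2 and 1 were final sites. Over the 21951 protein-coding starts of the annotation the median was 0 final sites in that window, and 40.9% had at least 1. As many as 6 sites were found at 0.159% of starts, as many as 2 at 15.3%. The sites around Rbp4 are shared with its neighbours: 2 lay in introns of Pde6c, 1 in an intron of Ffar4 and 1 in an intron of Fra10ac1. The authors' deposited table joined 1 site each to Sst, Hhex and Rbp4.

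**Figure D1:**
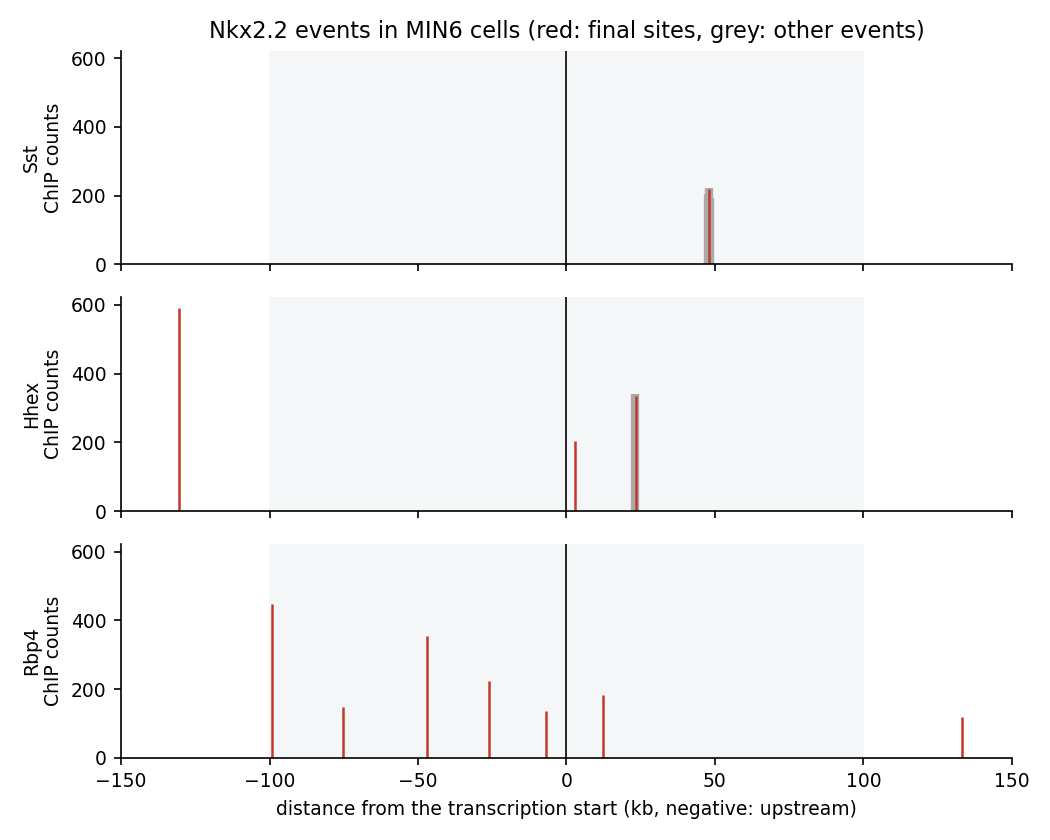
Nkx2.2 ChIP counts (both MIN6 replicates added) at each event against the distance from the start of Sst, Hhex and Rbp4 in kb, with final sites in red, other events in grey and the window of 100000 bp shaded. Rbp4 has 6 final sites in the window, Hhex 2 and Sst 1.

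Shown are the sequences at the sites that the authors joined to the 3 genes, and at 2 further sites beside Rbp4. Each line is the plus strand of GRCm38, 151 bases centred on the site, and capitals mark AAGTG, the core known for NK2 homeodomain factors, or GTTGCNA, a half-site known for RFX factors, on either strand. GTTGCNA was added after the sequences had been seen.
Sst, chr16:23842745-23842895, 48138 bp downstream of the start: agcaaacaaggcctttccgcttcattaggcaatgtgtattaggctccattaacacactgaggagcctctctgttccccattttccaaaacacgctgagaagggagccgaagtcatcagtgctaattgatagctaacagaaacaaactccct
Hhex, chr19:37458168-37458318, 23433 bp downstream of the start: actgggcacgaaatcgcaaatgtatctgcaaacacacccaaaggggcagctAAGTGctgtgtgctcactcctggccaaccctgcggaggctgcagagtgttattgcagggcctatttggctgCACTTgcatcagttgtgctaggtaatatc
Rbp4, chr19:38112738-38112888, 12468 bp downstream of the start, in an intron of Ffar4: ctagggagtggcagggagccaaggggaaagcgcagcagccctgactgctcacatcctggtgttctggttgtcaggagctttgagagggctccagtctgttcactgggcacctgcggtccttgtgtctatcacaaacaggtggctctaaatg
Rbp4, chr19:38131953-38132103, 6747 bp upstream of its start and 753 bp from the start of Pde6c: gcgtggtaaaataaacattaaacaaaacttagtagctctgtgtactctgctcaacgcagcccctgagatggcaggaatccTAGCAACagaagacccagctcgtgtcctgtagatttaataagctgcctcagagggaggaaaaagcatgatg
Rbp4, chr19:38172345-38172495, 47139 bp upstream, in an intron of Pde6c: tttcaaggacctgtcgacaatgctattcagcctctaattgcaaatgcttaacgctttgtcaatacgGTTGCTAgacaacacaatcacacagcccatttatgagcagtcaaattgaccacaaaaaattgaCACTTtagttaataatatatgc
The Hhex window held the AAGTG core 2 times and the site in the Pde6c intron held it 1 time, while the Sst window and the other windows shown for Rbp4 held none. Of the final sites within 100000 bp of the Rbp4 start and not joined to Rbp4, only the 2 shown held AAGTG or GTTGCNA. The rest held neither and are not shown. The authors joined the site in the Pde6c intron to Pde6c. Over all 6473 final sites, 32.9% of windows of this length held AAGTG, 11.7% its longer form TNAAGTG and 24.9% GTTGCNA, with matches on both strands counted. The longer form occurred in the Pde6c intron window. The site nearest to the Rbp4 start had 59 and 76 ChIP counts in the 2 replicates, the fewest of the 6 final sites in added counts, and the site at the Pde6c intron had 201 and 155.

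In 8-week islets with the SD mutation in beta cells, Rbp4 rose 12.8-fold. Its level was 130 and 135 CPM in the 2 controls and 1665, 1611 and 1841 CPM in the 3 betaSDmut libraries. The groups were far apart and each was tight. On the log2 scale this is 3.68 with an SE of 0.122 (edgeR adjusted p = 0.000382), and by p-value Rbp4 ranked 4 among 15413 genes tested. Of these genes 7.94% were called, and of the 3 delta-cell genes 1 was.

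Sst and Hhex were not called in the same libraries. Sst stood at 2934 and 1929 CPM in controls and at 3261, 4878 and 3220 CPM in betaSDmut. All 3 betaSDmut libraries were above both controls, but the difference missed the threshold (log2 fold change 0.63, SE 0.262, edgeR adjusted p = 0.203). Hhex stood at 17.0 and 12.6 CPM in controls and 17.0, 24.9 and 19.9 CPM in betaSDmut (log2 fold change 0.48, SE 0.202, edgeR adjusted p = 0.212). Its lowest betaSDmut library met the higher control. In bulk islets, more delta cells, more RNA per delta cell and RNA from other cells, the mutated beta cells among them, cannot be told apart.

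In 4-week islets labelled betaKO, Rbp4 again rose and the others missed the threshold. Rbp4 was at 112 and 100 CPM in controls and at 748 and 826 CPM in betaKO, 7.41-fold higher, with no overlap. This change of 2.89 on the log2 scale (SE 0.111, edgeR adjusted p = 0.00586) had the smallest p-value of the 14942 genes tested, of which 1.56% were called. Sst was at 3303 and 1773 CPM in controls and 5646 and 4286 CPM in betaKO, without overlap (log2 fold change 0.97, SE 0.359, edgeR adjusted p = 0.337). Hhex was at 19.5 and 13.4 CPM in controls and 29.4 and 18.1 CPM in betaKO, overlapping (log2 fold change 0.52, SE 0.305, edgeR adjusted p = 0.501).

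**Figure D2:**
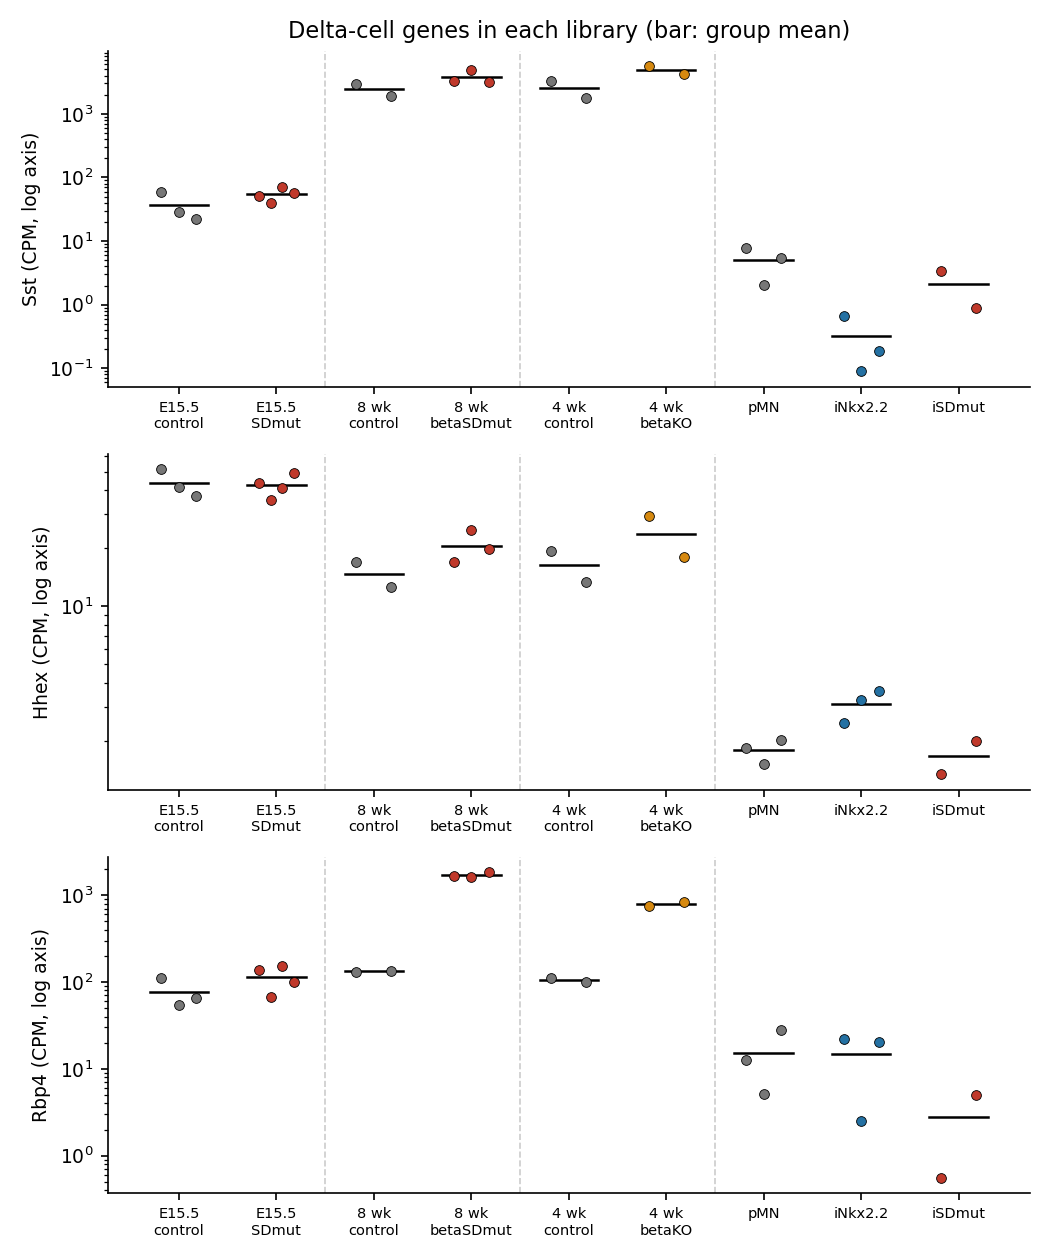
TMM-scaled CPM on a log axis of Sst, Hhex and Rbp4 in every RNA library, by group, with the group mean as a bar; the 3 kinds of sample were scaled separately. Rbp4 is at 1611 to 1841 CPM in betaSDmut and 748 to 826 in betaKO against 100 to 135 in all islet controls, while Sst and Hhex, not called, are 1.39 to 1.96-fold higher on the fitted scale.

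Markers of other cells moved in some of these libraries. In the 4-week comparison, alpha-cell markers summed to 50592 to 62428 CPM in betaKO against 24972 to 29182 in controls, PP- and epsilon-cell hormones to 6607 to 8225 against 2583 to 2751, and acinar markers to 15179 to 42249 against 6071 to 11394. At 8 weeks acinar markers summed to 977, 2064 and 11294 CPM in betaSDmut and 13956 and 8336 CPM in controls. Alpha-cell markers then summed to 21850 to 32223 CPM in betaSDmut against 31214 to 39524 in controls, overlapping. The sum of beta-cell markers, largely Ins1 and Ins2, was lower without overlap at both ages. It was 166734 to 178887 CPM in betaKO against 210344 to 214875 in controls, and 199002 to 219475 in betaSDmut against 236493 to 241731. At each age 1 of the 7 markers was called lower, where 7.94% (8 weeks) and 1.56% (4 weeks) of all genes were called. Iapp of the same list went the other way. It was at 4047 to 5276 CPM in betaSDmut against 2920 to 3086, and at 3682 to 4089 in betaKO against 2842 to 3335. The 6 hepatocyte markers summed to 192 CPM in betaKO replicate 2, of which Apoa1 made 184 CPM while Alb was at 2.73, and to at most 4.46 CPM in the other 8 islet libraries. The other betaKO library, with 3.49 CPM of those markers, had Rbp4 at 748 CPM. Visceral endoderm markers, which also belong to cells that make Rbp4, summed to 378 CPM in betaKO replicate 2, where Apob was at 187 CPM. Their sum was far lower in the other betaKO library. The part of hepatocyte and visceral endoderm cells in the level of Rbp4 was not tested. Of 5 adipocyte markers, from another source of Rbp4, Fabp4 made nearly the whole sum, at 4.91 to 6.44 CPM in betaSDmut and 2.56 to 3.67 in controls at 8 weeks. Fabp4 is also made by endothelium, and at 8 weeks Cfd, Lep and Plin1 were at 0 and Adipoq had 1 count in 1 library. With this list, in effect Fabp4, as a covariate, a choice made after seeing the data, Rbp4 kept a log2 fold change of 3.81 at 8 weeks but no gene was called (adjusted p = 0.157 for Rbp4, 0 genes called). With the acinar list as a covariate at 4 weeks it was 2.93 (adjusted p = 0.0699, again 0 genes called). Each of these 2 lists was higher in every mutant library than in every control of its age. These fits thus cannot tell the list from the mutation. Xist was high in 1 betaSDmut library (740 CPM) and 1 control at 4 weeks (987 CPM). Without those libraries Rbp4 was 3.70 and 2.98 higher on the log2 scale (edgeR adjusted p = 0.000152 and 0.0387).

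The rise of Rbp4 was larger in betaSDmut than in betaKO islets. The difference of the 2 log2 changes was 0.80 (SE 0.146, edgeR adjusted p = 0.0472), in a comparison where 1.21% of 15995 genes were called. The call was lost in 12 of 16 alternative fits, with values from 0.72 to 0.96 and adjusted p up to 0.208. Leaving out any 1 islet library other than betaSDmut replicate 1 ended it. Age, mutation and source study cannot be told apart here. For Sst the difference was -0.33 (adjusted p = 0.824) and for Hhex -0.04 (adjusted p = 0.979). In the authors' deposited table Rbp4 was called higher in both mutants (log2 changes of 2.76 in betaKO and 3.83 in betaSDmut) and Sst and Hhex in neither.

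**Figure D3:**
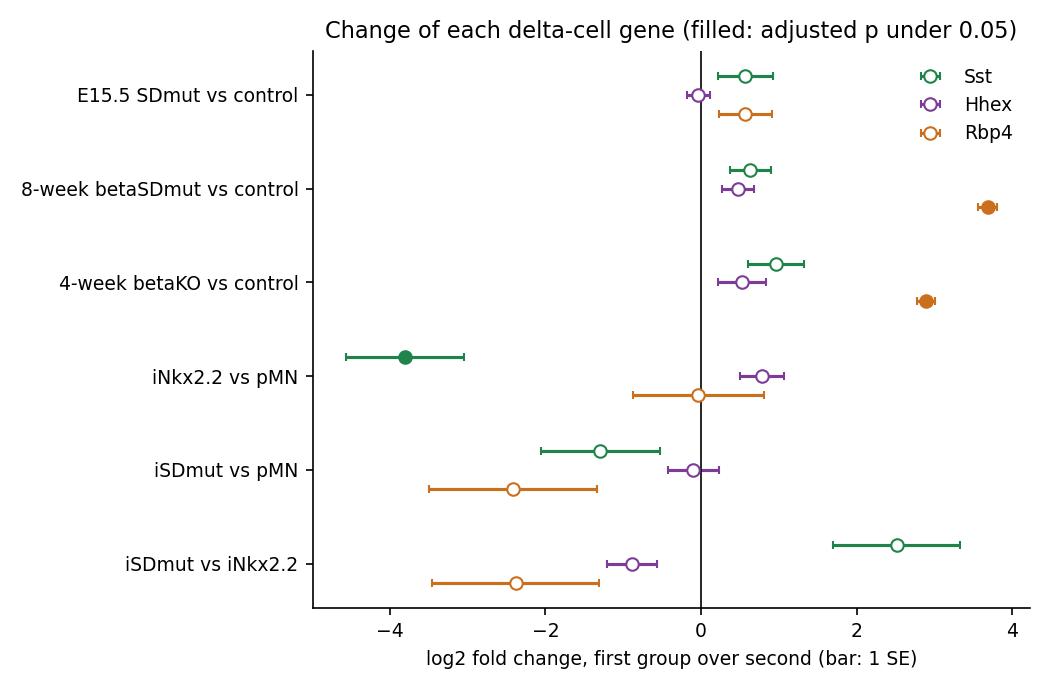
Log2 fold change with 1 SE for Sst, Hhex and Rbp4 in 6 comparisons; filled points have an edgeR adjusted p under 0.05. Rbp4 stands apart at 3.68 and 2.89 in the islet comparisons, and Sst at -3.81 in iNkx2.2 against pMN.

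Set against Sst within each library, Rbp4 separated from it in mutant islets. At 8 weeks the log2 ratio of Rbp4 to Sst counts (pseudocount 1) was -4.50 and -3.84 in controls and -0.97, -1.60 and -0.81 in betaSDmut. At 4 weeks it was -4.88 and -4.14 in controls and -2.92 and -2.38 in betaKO. The ratio was thus higher in every mutant library than in any islet control. The mean ratio rose 8.24-fold and 3.65-fold. Exact permutation tests gave two-sided p = 0.2 and 0.333, the smallest that 3 against 2 and 2 against 2 libraries allow (0.4 and 0.48 after adjustment over 18 ratio tests).

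The ratio of Rbp4 to Hhex behaved alike, with means of 3.17 in controls and 6.38 in betaSDmut and of 2.71 in controls and 5.09 in betaKO, and no overlap. The ratio of Hhex to Sst differed less. At 8 weeks its log2 value was -7.43 and -7.26 in controls and -7.58, -7.61 and -7.34 in betaSDmut, which overlapped. At 4 weeks it was -7.40 and -7.04 in controls and -7.58 and -7.88 in betaKO, a mean difference of -0.51 that the design cannot test below p = 0.333 (exact, two-sided).

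**Figure D4:**
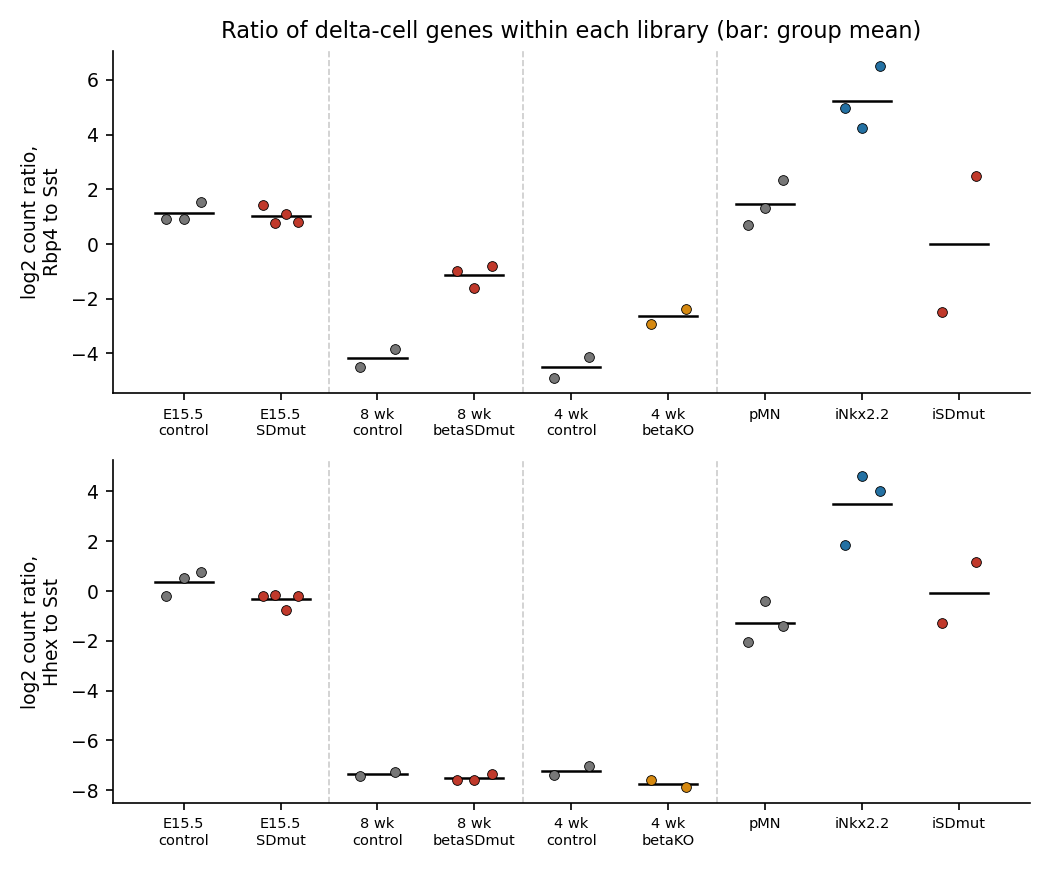
Log2 ratio of counts of Rbp4 to Sst (upper) and Hhex to Sst (lower) in every RNA library, with the group mean as a bar. Rbp4 to Sst rises from -4.88 to -3.84 in islet controls to -2.92 to -0.81 in mutant islets, while Hhex to Sst stays between -7.88 and -7.04 in all islets.

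Per transcript length, Sst stayed the most abundant of the 3 in every islet library. The authors' FPKM of Rbp4 was 208 and 215 in 8-week controls, and 2678, 2636 and 3046 in betaSDmut. That of Sst was 9252 and 6141, and 10162, 15560 and 10539. For every 100 FPKM of Sst there were thus 2.25 and 3.51 FPKM of Rbp4 in controls and 26.4, 16.9 and 28.9 in betaSDmut. At 4 weeks the same figure was 1.63 and 2.79 in controls and 6.32 and 9.42 in betaKO. Hhex was at 9.47 to 20.2 FPKM over all 9 islet libraries. Ins2 is listed at 0 FPKM in every islet library, so a 0 there can be a failed estimate, and no rank is given from it.

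Across the 9 islet libraries Sst and Hhex were correlated. Pearson's r of their log2 CPM was 0.93 (exact permutation p = 0.00116, adjusted over 9 relations 0.0104), Spearman's rho was 0.83 (adjusted p = 0.0744), and r without the 2 libraries farthest from the Sst median was 0.89. Each age held under 6 libraries, so no value within an age is given. The permutation treated libraries of all groups as alike. Both genes averaged higher in mutants, so this r can include the difference between groups. Rbp4 fell into separate clusters of control and mutant libraries, so neither an r with it nor the genes most like it are given in islets. By likeness over 11755 genes, Hhex was the third nearest to Sst after Ranbp1 (r = 0.96) and F5 (0.94), and Sst the second nearest to Hhex, after Psmd11 and before Ttc13 (each 0.93).

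Both genes flanking Rbp4 rose with it in islets. They were described after their values had been seen. Pde6c was at 0.334 and 0.563 CPM in 8-week controls and at 18.0, 19.0 and 19.0 CPM in betaSDmut, or higher by 5.34 on the log2 scale (SE 0.198, edgeR adjusted p = 0.000484), from 7 and 13 counts to 433, 459 and 524. At 4 weeks it was at 0.833 and 0.597 CPM in controls and 4.38 and 6.17 CPM in betaKO, or higher by 2.84 on the log2 scale (SE 0.383, edgeR adjusted p = 0.0420) and the call was lost in 7 of 11 alternative fits, among them those without betaKO replicate 2 (adjusted p = 0.109), without control replicate 1 (0.150) and without control replicate 2 (0.203). The groups did not overlap at either age. The 2 effects on Pde6c differed by 2.53 (SE 0.384, edgeR adjusted p = 0.0260), with the larger rise in betaSDmut as for Rbp4. This call was lost in 7 of 16 fits, with adjusted p up to 0.148.

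Ffar4 was at 8.83 and 11.1 CPM in 8-week controls and 32.0, 40.0 and 40.7 CPM in betaSDmut, or higher by 1.91 on the log2 scale (SE 0.165, edgeR adjusted p = 0.00456). At 4 weeks it was at 8.03 and 6.45 CPM in controls and 33.3 and 26.6 CPM in betaKO, or higher by 2.04 on the log2 scale (SE 0.182, edgeR adjusted p = 0.0224). No mutant library overlapped a control. At each age 3 alternative fits lost the call, 2 of them by leaving out 1 control: without replicate 1 or 2 the adjusted p was 0.0644 and 0.0607 at 8 weeks and 0.0838 and 0.116 at 4 weeks. Its 2 effects differed by -0.13 (adjusted p = 0.875). The next genes outward, Cep55, Myof, Fra10ac1 and Lgi1, were not called at either age, with edgeR adjusted p of 0.144 or more. Around Hhex, Kif11 and Exoc6 were not called, and around Sst Bcl6 was not. The labels and notes do not state whether counting used strand. Reads that run past the end of Rbp4 into Ffar4, or the reverse, thus cannot be told apart. Rbp4 and Pde6c lie beside each other with their starts, and whether reads from one were counted for the other was not tested.

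**Figure D5:**
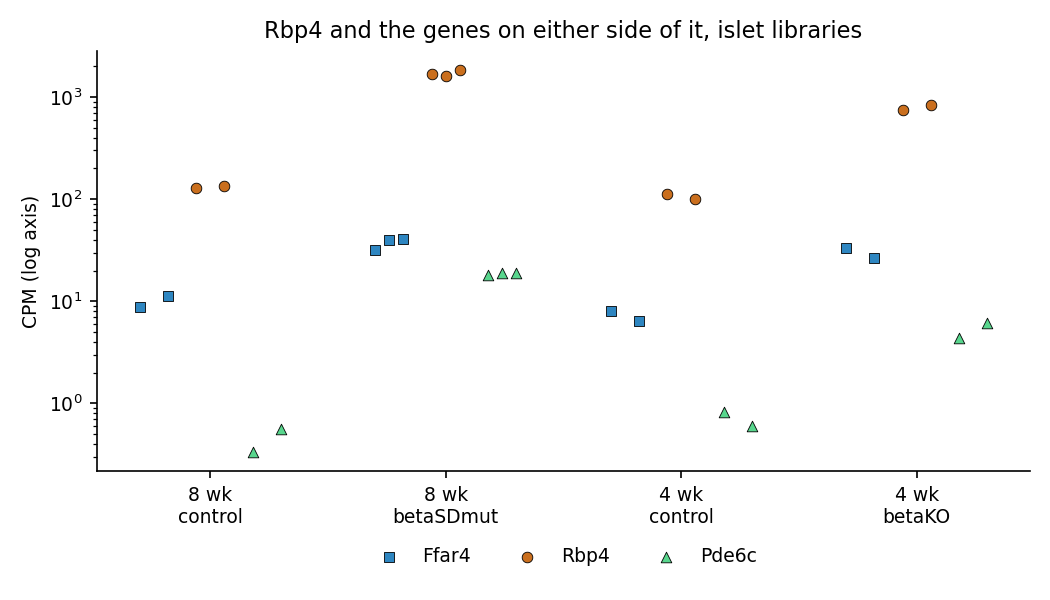
TMM-scaled CPM on a log axis of Ffar4, Rbp4 and Pde6c, neighbours in that order on the chromosome, in the 9 islet libraries. All 3 are higher in every mutant library than in every control of the same age, and Pde6c is higher in betaSDmut (18.0 to 19.0 CPM) than in betaKO (4.38 to 6.17).

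Of 8 other delta-cell genes tested at 8 weeks, 2 were higher and 1 lower, where 7.94% of all genes were called. Their median log2 fold change was 0.49 against 0.01 over all genes. Casr, the calcium-sensing receptor, went from 101 and 115 CPM to 155, 156 and 161 CPM (log2 fold change 0.54, edgeR adjusted p = 0.0203), and the other was Ffar4. Frzb, a secreted Wnt antagonist, fell from 316 and 311 CPM to 232, 207 and 235 CPM (-0.49, adjusted p = 0.0323).

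At 4 weeks 3 of the 8 were higher and none was lower, where 1.56% of all genes were called, and the median was 0.95 beside 0.97 for Sst. Ghsr, the ghrelin receptor, went from 5.68 and 6.27 CPM to 13.5 and 13.3 CPM (1.17, edgeR adjusted p = 0.0432). Spock3, a matrix proteoglycan, went from 10.1 and 8.36 CPM to 23.5 and 24.2 CPM (1.36, adjusted p = 0.0314), and the third was again Ffar4. Of all 8, Ffar4 was the one called in both comparisons. The 2 effects differed for Spock3 (-1.54, adjusted p = 0.0193). Casr lost its 8-week call in 4 of 13 fits and Frzb in 5, and at 4 weeks Spock3 lost its call in 4 of 11 and Ghsr in 8.

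Of the genes of somatostatin processing and reception, 1 of 7 tested at 8 weeks was higher (7.94% of all genes were called), the receptor gene Sstr5, with 1 and 0 counts in controls and 13, 10 and 12 in betaSDmut (edgeR adjusted p = 0.0394), a count too low for a fold and lost in 8 of 12 fits. Pcsk1, Pcsk2 and Cpe, which cut prohormones, were not called. Of them Pcsk2 was at 2650 to 2781 CPM in betaSDmut, below the 3465 to 3947 CPM of controls. At 4 weeks 0 of 6 were called, where 1.56% of all genes were. The receptor gene Sstr1 was at 2.53 and 2.21 CPM in controls and 5.21 and 7.81 CPM in betaKO (1.45, edgeR adjusted p = 0.109). Sstr2, another receptor gene, was at 1.78 and 3.40 CPM in controls and 4.62 and 5.70 CPM in betaKO (1.01, edgeR adjusted p = 0.308). The median was 0.07 at 8 weeks and 0.29 at 4 weeks.

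Retinoid genes, the pathway that Rbp4 supplies, went both ways at 8 weeks. Of 15 tested, 2 were higher and 3 lower (7.94% of all genes were called), with a median of -0.25. Aldh1a3, which makes retinoic acid, went from 1.57 and 0.693 CPM to 13.2, 20.9 and 25.1 CPM (4.13, SE 0.460, edgeR adjusted p = 0.00940). Crabp1, a retinoic acid binder, was higher (adjusted p = 0.0424), at 0 and 1 counts against 8, 15 and 19. The receptors Rara (-1.18, adjusted p = 0.00677) and Rxra (-0.39, adjusted p = 0.0395) and the carotene-cleaving Bcmo1 (-1.49, adjusted p = 0.0149) fell. Each of these 5 calls was lost in 3 to 7 fits, Rara in the fewest and Rxra in the most. Ttr, the partner of Rbp4 in plasma, was the single call of 15 at 4 weeks (0.76, adjusted p = 0.0468, lost in 8 of 11 fits), and at 8 weeks it was at 1027 and 1379 CPM in controls and 845, 1239 and 1280 CPM in betaSDmut.

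At E15.5 none of the 3 genes was called, and the fitted differences of Rbp4 and Sst were of the same size. Sst was at 59.2, 28.4 and 22.4 CPM in controls and 50.7, 39.5, 70.7 and 56.6 CPM in SDmut. Rbp4 was at 112, 53.6 and 65.5 CPM in controls and 137, 67.2, 153 and 99.8 CPM in SDmut. For both, SDmut libraries ran higher on average and overlapped the controls, with log2 fold changes of 0.57 each (SE 0.351 and 0.343, edgeR adjusted p = 0.9998 for both). Hhex was at 51.5, 41.4 and 37.5 CPM in controls and 43.6, 35.4, 41.3 and 49.2 CPM in SDmut, with a change of -0.04 (SE 0.148). In this comparison 0.00534% of 18723 genes were called, and 475 (2.54%) had an unadjusted p under 0.05, none of the 3 among them. Of the 7 beta-cell markers 0 were called, though their sum was 54.8 to 107 CPM in SDmut against 290 to 818 in controls. A missing call at E15.5 thus does not show that a gene was unchanged.

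The log2 ratio of Rbp4 to Sst at E15.5 was 0.92, 0.92 and 1.55 in controls and 1.43, 0.76, 1.11 and 0.82 in SDmut. The groups overlapped, with a mean difference of -0.10 (exact permutation p = 0.686, two-sided; the smallest possible is 0.0571). Across the 7 libraries r between Sst and Rbp4 was 0.87 (exact permutation p = 0.0137, adjusted 0.0616; rho 0.86, adjusted p = 0.107; r 0.82 without the 2 libraries farthest from the Sst median). For Sst and Hhex r was 0.59 and for Hhex and Rbp4 0.49 (adjusted p = 0.255 and 0.342). None passed the threshold.

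Tissue makeup varied among these embryonic libraries. Skeletal muscle markers (8 genes) summed to 4232 CPM in control 3 and 4128 CPM in SDmut 2, and to at most 33.3 CPM elsewhere. Those 2 libraries had the lowest Sst and the lowest Hhex of their groups. Without both, a choice made after seeing the data, the changes were 0.44 for Sst, 0.65 for Rbp4 and -0.06 for Hhex. Acinar markers summed to 27708, 15498 and 10742 CPM in controls and 23104, 11819, 34940 and 26985 CPM in SDmut. The library highest in them, SDmut 3, was also the highest in Sst and Rbp4, and control 3, the lowest in them, had the lowest Sst. Their part in the differences and in the r of Sst and Rbp4 was not tested. Hepatocyte markers were highest in SDmut 1 (1945 CPM) and control 3 (842 CPM), while the highest Rbp4 was in SDmut 3, where they summed to 60.7 CPM. The titles hold a number whose meaning is not given, with one shared by 2 libraries of each group and another by control 3 and SDmut 3. Within the first set, chosen after seeing the data, the changes were 0.04 for Sst and 0.30 for Rbp4. In the other pair Sst was at 22.4 and 70.7 CPM and Rbp4 at 65.5 and 153 CPM. With the number as a block over all libraries the changes were 0.57 and 0.61 (adjusted p = 1.00 for both). Leaving out control 1 raised them to 1.10 and 0.94, still uncalled (adjusted p = 0.879).
The genes most like the 3 over these libraries came from 12652. They were Abhd14a, Leprotl1 and Pgpep1 for Sst (each r = 0.99), Toe1 (0.996), Casp8 and Carmil1 (each 0.97) for Hhex, and Atp5h, Ndufa11 and Cebpa (each 0.99) for Rbp4. None of the other delta-cell genes (0 of 7 tested, median -0.07), somatostatin genes (0 of 8) or retinoid genes (0 of 22) was called. DESeq2 called 25 genes in all, none of the 3 members.

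In neural progenitors, where delta cells play no part, the 3 genes were low, and 1 of them was called. Sst had 140, 33 and 130 counts in pMN and 33, 2 and 5 in iNkx2.2, or 7.79, 2.00 and 5.504 CPM against 0.674, 0.0895 and 0.189 CPM. No iNkx2.2 library reached the lowest pMN library, and Sst was 14.0-fold lower (log2 fold change -3.81, SE 0.758, edgeR adjusted p = 0.0159), where 9.49% of 15653 genes were called. The call was lost in 4 of 14 alternative fits: without a filter on low counts (adjusted p = 0.0599), within lane 2 (0.0746), without iNkx2.2 replicate 3 (0.0598) and without pMN replicate 1 (0.0660). These fits did not pair libraries. With the replicate number as a block over all progenitor libraries, iSDmut included, the log2 fold change of Sst was -3.99 (edgeR adjusted p = 0.000125).

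Hhex had 33, 25 and 48 counts in pMN and 121, 73 and 96 in iNkx2.2. In CPM these were 1.84, 1.52 and 2.03 against 2.47, 3.27 and 3.62, without overlap. The log2 fold change of 0.78 (SE 0.283) was not called (edgeR adjusted p = 0.119). It was called with the same replicate block (0.78, edgeR adjusted p = 0.0394). That fit called 4629 genes where the fit without a block called 1486. Rbp4 was at 12.7, 5.10 and 28.2 CPM in pMN and 22.05, 2.51 and 20.5 CPM in iNkx2.2, overlapping, with a change of -0.03 (edgeR adjusted p = 0.986).

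In iSDmut progenitors none of the 3 was called against either group without a replicate block. Sst was at 3.36 and 0.873 CPM, between the other 2 groups and overlapping pMN alone. Its change was -1.30 from pMN and 2.51 from iNkx2.2 (edgeR adjusted p = 0.381 and 0.247), and with a replicate block -1.31 from pMN and 2.68 from iNkx2.2, both called (adjusted p = 0.03 and 0.00843). Whether the iSDmut numbers pair samples is not settled by the data. Hhex was at 1.34 and 2.00 CPM, below all iNkx2.2 libraries (-0.88, adjusted p = 0.299). Rbp4 was at 0.560 and 5.03 CPM (-2.42 from pMN and -2.38 from iNkx2.2, adjusted p = 0.249 and 0.407). Of all genes 3.54% were called against pMN and 0.281% against iNkx2.2. The comparisons share libraries and are given side by side. The samples hold no untreated library of the iSDmut line. Line and mutation, and against pMN also induction, thus cannot be told apart for iSDmut.

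Within each progenitor group Rbp4 varied widely between libraries. The 8 visceral endoderm markers, which belong to cells that make Rbp4, summed to 9.86 and 29.6 CPM in iSDmut, to 132, 75.4 and 131 CPM in pMN, and to 148, 59.4 and 134 CPM in iNkx2.2. The 4 libraries with Rbp4 under 6 CPM were the 4 with the lowest sums. Their part in the level of Rbp4 was not tested. Cubn was the highest of them, at 4.59 to 115 CPM over the 8 libraries, while Afp reached 0.804, Apoa1 1.04 and Apob 7.96 CPM at most.

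Frzb of the delta-cell list was higher than in pMN in iNkx2.2 and iSDmut, by 2.47 and 3.31 on the log2 scale (edgeR adjusted p = 0.00180 and 0.00140). It was the single call among 5 tested, where 9.49% and 3.54% of all genes were called. Of 20 retinoid genes tested, 1 was higher (Lrat) and 5 lower (Aldh1a1, Crabp1, Crabp2, Rarb and Rxra) in iNkx2.2, beside the 9.49% of all genes. In iSDmut 1 was higher (Aldh1a2) and 3 lower (Aldh1a1, Cyp26a1 and Rxra), beside the 3.54%. Lrat kept its call in all 14 alternative fits in iNkx2.2, and the others lost it in 1 to 6. In iSDmut each call was lost in 6 to 8 of 13 fits. Rarb was the single retinoid call between iSDmut and iNkx2.2, at 165 and 131 CPM against 89.4, 77.9 and 79.5 CPM (0.85, adjusted p = 0.0384). In that comparison 0.281% of all genes were called. None of the 7 somatostatin genes tested was called in any progenitor comparison.

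The log2 ratio of Rbp4 to Sst was 0.71, 1.32 and 2.35 in pMN and 4.99, 4.25 and 6.50 in iNkx2.2, without overlap (unpaired exact permutation p = 0.1, the smallest that 3 against 3 allow). In iSDmut it was -2.47 and 2.47. Across the 8 libraries r was -0.72 for Sst and Hhex (rho -0.71; exact permutation p adjusted to 0.142 and 0.173; r -0.96 without the 2 libraries farthest in Sst). It was 0.09 for Sst and Rbp4 and 0.39 for Hhex and Rbp4 (rho 0.17 and 0.43; adjusted exact permutation p = 0.832 and 0.374), and none passed. No lane held 6 libraries for a value of its own.

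Over the 9 RNA groups the 3 genes ranked the groups in different orders; the 3 tables were scaled separately, so only gaps far larger than their spread can be read between them. Mean Sst fell from 4966 ± 961 CPM (SD, n = 2) in betaKO through 3786 ± 946 (SD, n = 3) in betaSDmut to 2538 ± 1082 and 2432 ± 711 (SD, n = 2 each) in 4- and 8-week controls, each neighbour overlapping the next. It was 54.4 ± 13.0 (SD, n = 4) and 36.7 ± 19.8 (SD, n = 3) at E15.5 and 5.10 ± 2.92 or less in progenitors. Mean Rbp4 was 1705 ± 120 CPM (SD, n = 3) in betaSDmut and 787 ± 54.9 (SD, n = 2) in betaKO, apart from each other and from all the rest. Below them 8-week controls (132 ± 3.52), E15.5 SDmut (114 ± 38.4), 4-week controls (106 ± 8.24) and E15.5 controls (76.9 ± 30.7) each overlapped the next. Mean Hhex was 43.5 ± 7.21 CPM (SD, n = 3) in E15.5 controls, 42.4 ± 5.71 (SD, n = 4) in E15.5 SDmut and 14.8 to 23.7 CPM in the islet groups. The nearest libraries of the 2 tables, at 35.4 and 29.4 CPM, were too close to be ordered.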

How the data were processed

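Gene-level counts were deposited by the authors without normalization. The FPKM values, the log2 fold changes, p-values and calls in the authors' deposited tables, and the log2 CPM of final ChIP sites were also deposited by the authors. Per the submitters' processing notes, STAR, Cufflinks, DESeq2, edgeR 3.20.9, limma 3.34.9, bedtools 2.17.0 and mm10 were used; strand use is not given in the sources used here. In 1 deposited table, 2 columns belong to no sample here and were not used, and neither was the input library.

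Counts were tested with edgeR 4.0.16 (R 4.3.3; TMM, filterByExpr, robust quasi-likelihood, Benjamini-Hochberg threshold 0.05), fitted on E15.5 libraries, on each islet age, on all islets for the difference of effects, or on all progenitors. The SE is the absolute log2 change over the square root of F. DESeq2 1.42.0, other scalings, filters, covariates and blocks were alternatives. Ratios and correlations used exact permutation (scipy 1.17.1). Whether the replicate numbers pair progenitors was checked from deviations from group means: pMN and iNkx2.2 correlated at 0.715, 0.747 and 0.759, so the numbers from the titles were taken as pairs. The main fits and the ratio tests did not use these pairs. Fits with the replicate number as a block, given beside them, ran over all progenitor libraries, iSDmut included. The code was tested on simulated data. Members and lists were chosen with earlier results of these data known. Named genes are the 3 members, called genes of the delta-cell, somatostatin and retinoid lists, the 3 genes most like each member (not for Rbp4 in islets), and, chosen after their values were seen, genes beside the members. Some uncalled genes of these lists, such as Sstr1, Sstr2 and Pcsk2, are also named. Ffar4 and Fra10ac1 were matched in islets through RefSeq synonyms. A further item of the delta-cell list is not reported here.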

Additional observations from a re-analysis of the deposited data

Results flagged for a closer look

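The effects of the 2 islet mutations differed by the test of the difference itself for Rbp4 (0.80 on the log2 scale), Pde6c (2.53) and Spock3 (-1.54). Rbp4 and Pde6c rose more in betaSDmut, and the effect on Spock3 was larger in betaKO. All 3 calls were lost with a replicate block, Spock3 at an adjusted p of 0.0572. Rarb differed between the progenitors with mutant and wildtype transgene (0.85 higher in iSDmut), with 6 alternatives that lost the call, and without iSDmut replicate 1 its adjusted p was 0.284.

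Among the 4 embryonic SDmut libraries, replicate 3 stood apart in the log2 ratio of Hhex to Sst, at -0.77 against -0.22, -0.16 and -0.20 in the others. Its gap to the nearest was 0.903 of the range, above Dixon's 95% limit for 4 samples. Chance flags about 1 in 20 such groups, and 6 were tested. This library also had the highest Sst of its group, 70.7 CPM.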

How the results depend on the processing

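Of 294 values of the 3 genes under alternatives, 252 kept their direction and side of the threshold, 18 lost and 4 gained the call, and 20 turned. The rise of Rbp4 was 3.62 to 3.81 at 8 weeks and 2.81 to 2.98 at 4 weeks in all alternatives. At 8 weeks the adipocyte covariate, nearly all Fabp4, gave Rbp4 3.81 (no longer called), Sst -0.49 and Hhex -0.45. At 4 weeks the acinar covariate gave Rbp4 2.93 (no longer called) and Hhex -0.28. Both covariates separated mutants from controls, so these fits cannot tell them from the mutation. The islet difference of Rbp4 lost its call with RLE factors (0.79), the filter of 50 counts (0.80), the acinar covariate (0.90), a replicate block (0.74) and in leave-one-out fits (0.72 to 0.88). That of Hhex turned to 0.14 with total library size and 0.46 with the acinar covariate, and that of Ffar4 to 0.046 and 0.21. Leaving out 1 library gave islet differences of -0.85 to 0.052 for Sst, -0.34 to 0.36 for Hhex and -0.30 to 0.050 for Ffar4, and -0.13 to 0.10 for Hhex at E15.5. In iNkx2.2 against pMN, Sst lost its call without a filter (-3.77), in lane 2 (-3.45) and in some leave-one-out fits (-5.11 to -3.39). Rbp4 turned to 0.053 with total library size, 0.020 with the replicate block and 0.50 in lane 2, and ranged from -0.45 to 0.76 leaving out 1 library. The replicate block called Hhex in iNkx2.2 (0.78) and Sst in iSDmut against pMN (-1.31) and iNkx2.2 (2.68, and 2.64 with DESeq2). Hhex in iSDmut against pMN ranged from -0.42 to 0.15 leaving out 1 library. Ratios turned leaving out 1 library for Rbp4 to Sst at E15.5 (-0.23 to 0.11) and in iSDmut against pMN (-3.93 to 1.01), for Rbp4 to Hhex in iNkx2.2 (-1.69 to 0.071) and for Hhex to Sst in iSDmut against pMN (-0.00094 to 2.44). Of 4 events near Sst, 1 was final. The cause of these changes was not tested.

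Genes called moved with the replicate block from 1224 to 757 at 8 weeks, 194 to 87 for the islet difference, 1486 to 4629 in iNkx2.2, 554 to 2626 in iSDmut against pMN and 44 to 528 against iNkx2.2; DESeq2 called 25 at E15.5, 2012 at 8 weeks, 792 at 4 weeks, 652, 2226, 1353 and 496. The islet and iSDmut numbers were not taken as pairs, though the replicate block used them. Same-number correlations were -0.0331 and -0.00335 at 8 weeks, 0.129 and 0.129 at 4 weeks, 0.42 and 0.0562 for iSDmut with pMN and 0.388 and 0.146 with iNkx2.2, from 2 pairs each. Arms of 2 libraries limit every islet result, and leave-one-out fits there assume that a lone library varies like the other group.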
